A study of Mus musculus with 3 samples.

Results

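The comparison set the array titled as the EWS-ATF1 culture at high doxycycline for 24 h against the array titled as its control. It was made on log2(intensity + 1) of the deposited value table, over all probe sets that carry a single gene symbol. It used 2 of the 3 arrays of the series, and the third, labelled as tumor, is set beside them for each gene described. Of 28856 probe sets 21789 had 1 gene symbol, and these stood for 19938 genes. A gene with more than 1 of them was represented by the probe set whose mean log2 value was highest. A gene was counted if, on the brighter array of the pair, it exceeded the median of all probe sets there, which 11933 genes did. Because the filter accepts a gene through its brighter side alone, counts over the genes that passed it are descriptions of these arrays.

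The study measured RNA of mouse soft tissue sarcoma cells on Affymetrix whole-transcript gene arrays. By the labels, the control culture received doxycycline at 0 microg/ml and the high doxycycline culture 0.2 microg/ml, both for 24 h. The tumor was resected from a mouse that had an inducible EWS/ATF1 gene and had been given doxycycline for 3 months. All samples share a mixed C57/BL6, 129 and ICR background, and all are labelled as tumor cells from a soft tissue sarcoma. The sample descriptions give the samples labelled as cultures the same number and the tumor another, so by the labels the cultures stand for 1 line at most. Each group has 1 array, so a difference between arrays has no replicate check, and no test, p-value or standard error is given for any gene. The number of arrays, and not the depth of a library, limits the precision. On a log2 scale, "brighter" and "dimmer" below always compare the array labelled as high doxycycline with the array labelled as control. When 3 intensities follow a gene, they stand in the order control, high doxycycline, tumor. An intensity is a level on the deposited linear scale, and levels of different genes are not compared because probe sets differ in their response.

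EWS/ATF1 is the fusion protein of clear cell sarcoma, a soft tissue tumor with features of melanocytes. In it, the activating domain of EWSR1, a protein that binds RNA, is joined to the DNA-binding domain of ATF1. ATF1 belongs with CREB1 and CREM to a family of leucine zipper factors that bind the cAMP response element, and the normal factors activate it after phosphorylation by protein kinase A. The fusion lacks that need for a signal, and Fos, a subunit of the AP-1 factor that carries such an element, is the gene named in the title of the study.

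The promoter stretches of 5 genes from a list of CREB and ATF1 targets are shown because they carry the element that ATF1 binds. They were read from RefSeq windows on GRCm38.p6 that run from 250 bases before to 50 bases after a gene's start. Capitals mark the full element TGACGTCA, or for Fos its first part TGACG, and each stretch is written 5′ to 3′ on the strand of the gene. The Fos stretch is at chr12:85473778-85473874 on the plus strand, with its capitals 66 bases before the start. The Sst stretch is at chr16:23890839-23890938 on the minus strand (48 bases before the start), that of Scg2 at chr1:79440041-79440140 on the minus strand (68 bases), that of Pcsk1 at chr13:75089733-75089832 on the plus strand (78 bases) and that of Dusp1 at chr17:26508562-26508661 on the minus strand (143 bases).
Fos: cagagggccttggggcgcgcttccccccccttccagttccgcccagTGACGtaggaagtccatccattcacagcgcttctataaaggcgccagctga
Sst: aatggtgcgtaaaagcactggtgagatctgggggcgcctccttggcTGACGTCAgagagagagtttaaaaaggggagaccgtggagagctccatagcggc
Scg2: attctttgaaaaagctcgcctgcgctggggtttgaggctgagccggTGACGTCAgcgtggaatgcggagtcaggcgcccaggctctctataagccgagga
Pcsk1: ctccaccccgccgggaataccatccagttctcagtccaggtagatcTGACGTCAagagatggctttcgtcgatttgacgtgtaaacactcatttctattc
Dusp1: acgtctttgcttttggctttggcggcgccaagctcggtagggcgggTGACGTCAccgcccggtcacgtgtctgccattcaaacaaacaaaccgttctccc
Of the 28 listed target genes on the array, 23 had a window, 4 of these held the full element and 17 held TGACG on either strand. The full element reads the same on both strands and always contains the shorter one. A match describes these letters only. The genes of the 5 stretches did not share a direction between the arrays: Scg2 (436, 4544 and 6559) and Pcsk1 (2719.6, 8286 and 8593) were brighter on the array labelled as high doxycycline. Fos (1114, 1234 and 302), Dusp1 (5733, 8677 and 5737) and Sst (273, 211 and 199) differed by less than 2-fold from the array labelled as control.

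Genes of other tissues went against the labels, and their values stand here before the other results. On the array labelled as control 23 of 25 macrophage markers lay above the array's median, against 3 on the array labelled as high doxycycline and 2 on the array labelled as tumor. Their summed intensity was 43432, 7742 and 6465 on the 3 arrays. The 3 still above the median on the array labelled as high doxycycline were Lgals3 (5315, 4001 and 3858), Cd14 (650.3, 914 and 158) and Cd68 (3230.1, 412 and 248), of which Lgals3 is also made by many other cells. The skeletal muscle list had 24, 8 and 7 of 32 markers above the median and summed to 50842, 5855 and 5613. The endothelial list had 18, 4 and 4 of 24 markers above the median and summed to 20106, 5337 and 4556. Smooth muscle and pericyte markers were above the median in 11, 7 and 7 of 16 cases, with sums of 10907, 4934 and 4019. Genes of blood-derived cells, vessel wall and muscle fibres were thus bright on an array labelled as a culture and near the array's median or below it on an array labelled as a resected tumor. For that reason the arrays are called by their labels throughout, and the part of these tissues in the differences below was not tested. Whether the labels of the arrays labelled as control and tumor were exchanged was not tested either. If they were, each difference below would compare a culture with a tumor. Neutrophil and mast cell markers were above the median in 5, 0 and 0 of 15 cases, with sums of 6468, 1434 and 1382. In bulk RNA, fewer cells of a type and less RNA per cell cannot be told apart.

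Single markers show how wide the gap was. Lyz2, the lysozyme of macrophages and neutrophils, gave 3932, 68.0 and 64.8 on the arrays labelled as control, high doxycycline and tumor. The muscle creatine kinase gene Ckm gave 4795, 238 and 209.5, and the fast myosin gene Myh4 gave 2534, 87.4 and 79.2. Cdh5, the cadherin that joins endothelial cells, gave 2098, 135 and 106. In each of these genes the array labelled as control stood far above the other pair, and the arrays labelled as high doxycycline and tumor lay close together. The Schwann cell list had 7, 4 and 4 of 12 markers above the median with sums of 16697, 19671 and 18016. Its median log2 difference of -0.09 turned to 0.05 after the shift to a common median. Sox10, the neural crest factor of Schwann cells and melanocytes, was near the median on all arrays (253, 222 and 200.2). Of 6 red blood cell markers 2 passed the filter, Alas2 (473, 129.8 and 114) and Slc4a1 (450.2, 208 and 177), and both were dimmer by more than 2-fold. Of 14 lymphocyte markers 2 passed, the T-cell genes Cd4 (343, 139.9 and 135) and Cd3e (294, 228 and 165), and Cd4 was 2.44-fold dimmer. The summed adipocyte markers were 10729, 12337 and 15878, in which Fabp4, the fatty acid carrier of fat cells and macrophages, was dimmer (847, 87.6 and 143) while the desaturase gene Scd1 was brighter (3333, 7191 and 7137).

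**Figure D1:**
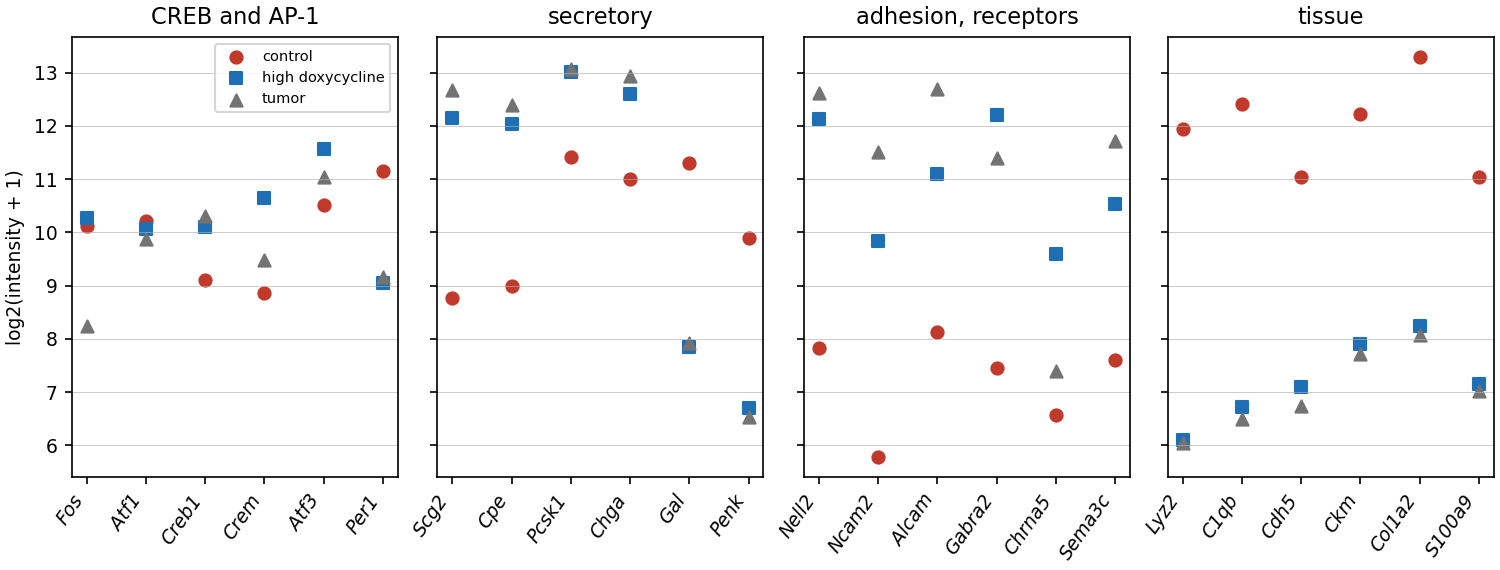
Level of 24 genes on the 3 arrays, as log2(intensity + 1) on the vertical axis, with 1 marker for each array and no replicates. The 6 tissue genes are far brighter on the array labelled as control, whereas the 6 genes of adhesion and receptors are dimmest there.

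Across all genes past the filter, 2079 of 11933 genes (17.4%) exceeded the control value by at least 2-fold on the array labelled as high doxycycline, and 1008 (8.45%) were dimmer by that factor. These 2 shares are the background over all genes. The brighter genes were more numerous and the dimmer ones went further: past 4-fold there were 390 brighter and 341 dimmer genes, past 8-fold 51 and 153, and past 16-fold 6 and 63. The median log2 difference was 0.08, and the middle of the distribution ran from -0.29 to 0.73 between its quartiles. The deposited values of 1102 genes (9.23%) were the same on both arrays. A shift of the arrays to a common median would raise every difference by 0.14, and quantile normalization would move the median by -0.11. A list whose median changes sign under either is named as such where it is described. Each list median given below as 0.00 became 0.14 under the shift and fell below 0 under quantile normalization.

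The share of brighter genes depended on how bright a gene was. From the dimmest to the brightest of 5 equal groups of genes, 5.99%, 12.1%, 18.2%, 23.3% and 27.5% were at least 2-fold brighter, whereas the share of dimmer genes stayed between 8.002% and 9.18%. The median difference went from -0.05 in the dimmest group to 0.48 in the brightest. A list's share of brighter genes is therefore set against that of all genes of like brightness where this is given below. The latter is the mean of these 5 shares weighted by the list's members in each group. Other counts, including those of subgroups, stand against the 17.4% brighter and 8.45% dimmer of all genes.

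**Figure D2:**
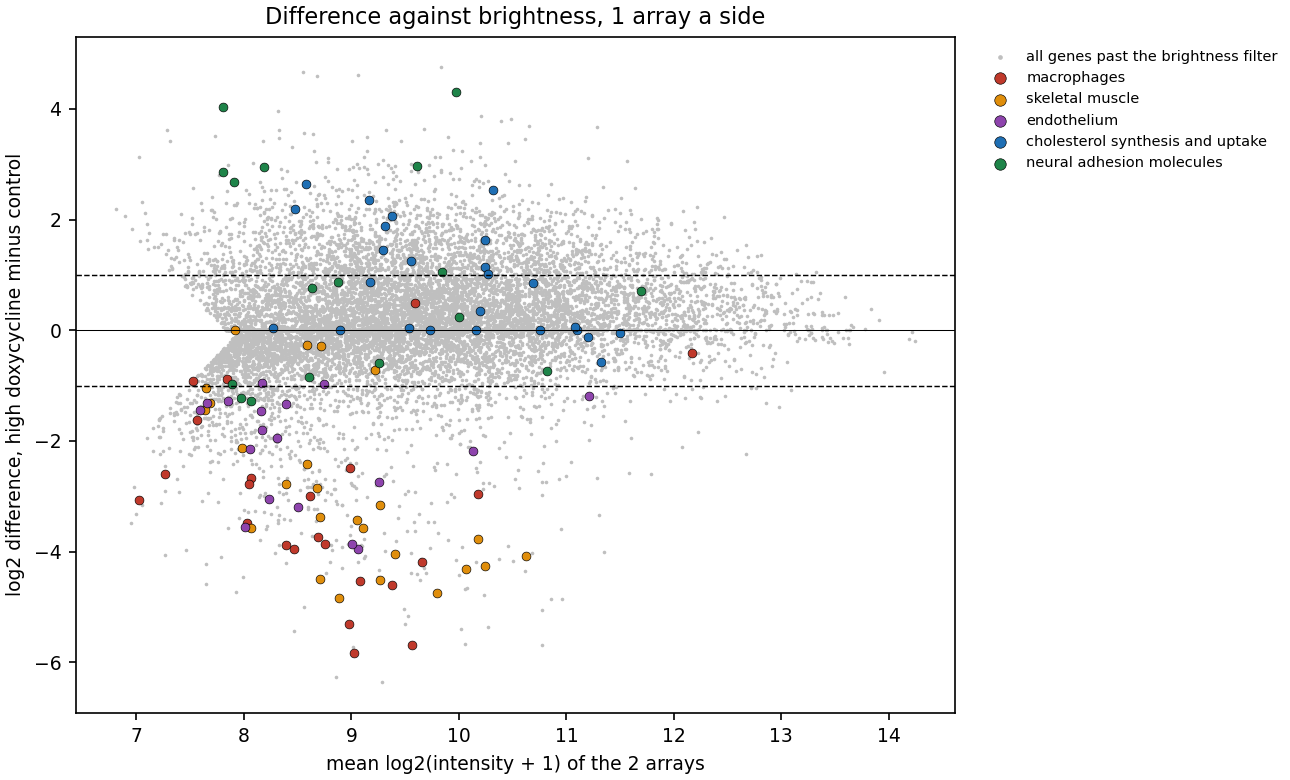
Each point is a gene past the filter, with the mean log2(intensity + 1) of the pair of arrays on the horizontal axis and the log2 difference, high doxycycline minus control, on the vertical axis. Dashed lines mark 2-fold, and 5 gene lists are coloured; the macrophage, muscle and endothelial genes lie mostly below the lower line while the cholesterol genes lie mostly at or above 0.

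The 15 genes with the largest dimmer values included macrophage, complement and matrix genes and none of the muscle or endothelial lists. They were the chemokine gene Ccl8, Wfdc17, Lyz2, the acute phase gene Saa3, the complement gene C1qb, the collagen-binding Sparc and Fmod, Ifi205, Bgn, Serping1, Cd74, Mrc1, Prg4, Col1a2 and Chit1. Bgn, which encodes the matrix proteoglycan biglycan, was 42.4-fold dimmer (6752, 158 and 242). Serping1, the inhibitor of the first complement enzyme, was 41.2-fold dimmer (7935, 192 and 219). Mrc1, the mannose receptor of tissue macrophages, was 39.8-fold dimmer (3175, 78.9 and 74.3), and Prg4, the lubricant of joint and tendon surfaces, was 35.8-fold dimmer (4404, 122 and 142). The part of tissue cells in these values was not tested.

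The 15 genes with the largest brighter values were Gabra2, Pcdhb9, Scoc, Cyp3a44, Nell2, Ncam2, Stxbp4, Pfn2, Emb, P2rx3, Cript, Cd24a, Fam171b, Echdc1 and Ppp2r3c. Several belong to neurons. Gabra2 encodes a subunit of the GABA-A receptor and gave 175, 4732 and 2697. Nell2, a secreted protein of neurons, gave 226, 4478 and 6292, and the adhesion molecule gene Ncam2 gave 54.3, 909.7 and 2899. In these 3 genes the array labelled as tumor was also far above the array labelled as control. Emb, the embigin gene of the immunoglobulin superfamily, was 14.2-fold brighter (379.9, 5400.2 and 3500.2). Cd24a, a glycoprotein of immature neural and epithelial cells, was 12.7-fold brighter (701, 8916 and 10452). Cript, whose product binds a scaffold protein of the synapse, was 12.9-fold brighter (446, 5789 and 6152). The phosphatase subunit gene Ppp2r3c gave 90.2, 1124 and 1164 and Echdc1, an enzyme that removes a by-product of fatty acid synthesis, gave 181, 2250.3 and 2438. For 3 of the 15 genes the rank rests on the chosen probe set of 2. The log2 differences of both probe sets were -0.08 and 4.61 for Scoc, 1.53 and 3.96 for Stxbp4, and 0.56 and 3.79 for the ATP-gated channel gene P2rx3.

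The genes joined in the fusion, Atf1 and Ewsr1, differed little between the compared arrays, whereas Crem and Creb1 of the ATF1 family were higher. Fos was at 1114, 1234 and 302 on the arrays labelled as control, high doxycycline and tumor, a log2 difference of 0.15 that turned to -0.12 under quantile normalization. Atf1, whose 3′ part is in the fusion, gave 1189, 1063 and 933, and Ewsr1, whose 5′ part is in the fusion, gave 1659.6, 1649.6 and 1624. The deposited table does not name which parts of either transcript the probes cover, so these values are no check of the transgene. The 17 CREB family and coactivator genes past the filter had a median of -0.07, above 0 after the shift to a common median. Among them 1 was brighter and none was dimmer by 2-fold (5.88% brighter, against 23.1% of all genes of like brightness). The one gene was Crem, which encodes activating and repressing forms of the factor (464, 1609.7 and 711), and it was brightest on the array labelled as high doxycycline. Creb1 itself gave 549, 1094 and 1264, just under 2-fold.

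Known targets of the family went both ways. Among 27 CREB and ATF1 target genes past the filter 5 were brighter and 3 dimmer (18.5% and 11.1%, against 21.8% and 8.198% of all genes of like brightness), and the median of 0.03 turned to -0.17 under quantile normalization. Brighter were Scg2, Crem, Pcsk1, the granule protein gene Chga (2060.3, 6216 and 7807) and Cited2, a partner of the coactivators CBP and p300 (2493, 5485 and 11019). The dimmer ones were the phosphodiesterase gene Pde7b (359.6, 78.2 and 66.6) and the period genes of the clock, Per1 (2287, 527 and 575) and Per2 (860.0, 299 and 369.7). Those 3 are at similar levels on the arrays labelled as high doxycycline and tumor. The orphan receptor Nr4a3, a rapid target of the family, was about as bright on both compared arrays and dim on the array labelled as tumor (3159.5, 3357 and 325).

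Promoter windows with the full element TGACGTCA made up 1.79% of 32851 windows and 3.03% of the 12173 windows of genes past the filter. They were 3.73% (78 of 2091) of the windows of genes at least 2-fold brighter, 3.07% of 9193 windows of genes within 2-fold and 1.01% (9 of 889) of the windows of genes at least 2-fold dimmer. The shorter TGACG was in 34.3%, 30.8% and 20.8% of the windows in the same order, against 20.8% of all windows. The median GC content of these windows was 60.7%, 61.3% and 58.7%, so the windows of the dimmer genes also had the lowest GC content, and its part in these shares was not tested.

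Immediate early and AP-1 genes were mostly level or dimmer. None of 27 immediate early genes was brighter by 2-fold, and the median was -0.49. Dimmer were 6 of them (22.2%, against 8.37% of all genes of like brightness). Zfp36l1, which speeds the decay of short-lived messages, was the dimmest (404, 72.9 and 72.9). The matricellular genes Ccn1 (2756, 909.7 and 799) and Ccn2 (7343, 3188 and 2479.9), which are also made by vessels and fibroblasts, were dimmer too, as was Klf2, a factor of resting endothelium (619, 279 and 287). The others were the stress gene Gadd45g (1849, 800.2 and 1402) and the growth inhibitor gene Btg2 (1196, 521 and 476). Of 17 AP-1 subunit genes Atf2 (755, 1624 and 1779) and the stress-induced Atf3 (1454, 3033 and 2109) were brighter and Batf3 (1992, 656 and 382), known from dendritic cells, was dimmer. That is 11.8% and 5.88%, against 18.7% and 8.42% of all genes of like brightness. The ERK feedback list had 3 brighter and no dimmer genes of 27 (11.1% brighter, against 18.4% of all genes of like brightness). Its median of 0.06 fell below 0 under quantile normalization. The phosphatase gene Dusp4 gave 279.9, 755 and 426 and the inhibitor gene Spry3 gave 167, 504 and 529. Dusp6, the ERK-specific phosphatase, was below 2-fold but ordered across the arrays (3435, 1794 and 455).

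The cAMP pathway and the clock each held genes on both sides and had a median of 0.00. Of 28 cAMP genes 6 were brighter and 4 dimmer (21.4% and 14.3%, against 17.8% and 8.38% of all genes of like brightness). Both type II regulatory subunits of protein kinase A were among the brighter ones, Prkar2a (317, 1296 and 1217) and Prkar2b (643, 2407 and 1851). The type I subunit genes did not share a direction. Prkar1b was dimmer (644, 243 and 215), and Prkar1a was higher on the array labelled as high doxycycline but within 2-fold (3770, 6543 and 5886). The phosphodiesterases Pde8b (307, 1479.6 and 1980.4) and Pde7a (242, 602 and 546) were brighter and their paralogs Pde8a (617, 230.2 and 210.0) and Pde7b dimmer. Among the adenylyl cyclases, Adcy5 was brighter (325, 968 and 1286) and Adcy3 was dimmer (1579, 227 and 221). Within each of these 3 kinds of gene, paralogs therefore stood on opposite sides. In the clock list 2 of 19 genes were brighter and 3 dimmer (10.5% and 15.8%, against 19.8% and 8.36% of all genes of like brightness). The brighter ones were Clock (699, 1695 and 1603) and the repressor gene Bhlhe41 (369, 992 and 1718). The dimmer genes were Per1, Per2 and Cry2 (1330.3, 577 and 828), which repress CLOCK, and Per3 lay just under 2-fold dimmer (805, 449 and 542).

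Genes of regulated secretion were found on both sides. Of 20 secretory granule and prohormone genes 6 were brighter and 3 dimmer (median 0.28). The 6 brighter ones belong to the machinery of the dense-core granule, namely the granins Scg2 and Chga, the processing enzymes Cpe (508, 4222 and 5373) and Pcsk1, the calcium sensor gene Syt4 (1451, 3359 and 3664) and Cadps, which primes granules for release (200.2, 1156 and 1240.3). The 3 dimmer ones encode peptides carried in granules. Galanin, Gal, was at 2541, 229.8 and 241, the enkephalin precursor Penk was at 956, 104 and 92.1 and the tachykinin precursor Tac1 was at 707, 259 and 135. Fibroblasts also make Penk, and the part of tissue cells in these 3 values was not tested. Neither role was uniform, since the peptide genes Npy (1414, 2049 and 1424) and Cartpt (9009, 11182 and 7931) were within 2-fold, and the granin gene Chgb (7406, 7406 and 7406) and the amidating enzyme gene Pam (4318, 4318 and 4312) were equal on the compared arrays. In the SNARE list 7 of 20 genes were brighter and none dimmer (35.0% brighter, against 20.7% of all genes of like brightness, median 0.53). Snap25, a core SNARE of neurons, gave 1421, 5542 and 7476, the complexin gene Cplx1 gave 1486, 3249 and 5679, and the small GTPase gene Rab3b gave 440.4, 1401 and 2375. The synaptic vesicle protein gene Syp was level and bright (7158, 6591 and 6294).

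Some surface molecules of neurons differed by large factors. Of 33 neural adhesion genes measured 17 passed the filter, with a median of 0.76. Among the 17, 7 were brighter and 2 dimmer (41.2% and 11.8%, against 16.7% and 8.54% of all genes of like brightness). Besides Nell2 and Ncam2 these were Alcam (277, 2183 and 6609), the synaptic organizer gene Lrrc4c (81.7, 601 and 2409.6), the olfactomedin gene Olfm3 (103, 809 and 2282), the contactin gene Cntn1 (93.5, 607 and 883) and Flrt3 (635, 1324 and 1114). Alcam, Lrrc4c, Olfm3 and Cntn1 were brighter still on the array labelled as tumor. Ncam2, Nell2, Lrrc4c, Olfm3 and Cntn1 passed the filter through the array labelled as high doxycycline alone, so the count describes these arrays only. Neurofascin, Nfasc, was dimmer (415, 171 and 147). Of 28 transmitter receptor genes measured 7 passed the filter, and among these 7, 4 were brighter and 2 dimmer. The brighter ones were Gabra2, the nicotinic subunits Chrna5 (94.2, 776 and 169) and Chrnb2 (1249, 2727 and 2215) and the serotonin receptor gene Htr2a (491, 2271 and 1083). These 4 were brightest on the array labelled as high doxycycline. Gabra2 and Chrna5 passed the filter through that array alone, so the count does not stand for the 28 genes. The glutamate receptor subunits Grin2a (2622, 1147 and 1104) and Grik5 (522, 196 and 295) were dimmer. Among 15 potassium and sodium channel genes the A-type channel Kcnd2 was brighter (1023, 2439 and 4096) and Kcna1 dimmer (771, 233 and 203), with 2 genes past 2-fold on either side. That is 13.3% each way, against 16.1% brighter and 8.50% dimmer of all genes of like brightness.

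In axon guidance, 3 of 29 genes were brighter and 5 dimmer (median 0.00). The shares were 10.3% and 17.2%, against 16.7% and 8.55% of all genes of like brightness. The secreted semaphorin gene Sema3c was 7.64-fold brighter (194, 1489 and 3360.0) and the ephrin gene Efna5 was brighter as well (252, 772 and 501). The 3 Slit ligands of the Robo receptors stood apart from each other, with Slit1 at 4948, 766 and 683, Slit3 at 4820.4, 1977 and 1019.9 and Slit2 at 192, 400.1 and 1296. Slit1 and Slit3 were dimmer and Slit2 brighter. Of 13 cadherin genes 3 were brighter (23.1%, against 14.6% of all genes of like brightness), namely Cdh18 (126, 585 and 1847), Cdh10 (77.0, 241 and 1015) and Cdh22 (383, 902 and 734). Cdh18 and Cdh10 passed the filter through the array labelled as high doxycycline alone.

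The clustered protocadherin beta genes included 12 genes at least 2-fold brighter. These genes lie side by side on mouse chromosome 18, and each encodes a different adhesion molecule whose choice gives a neuron its surface identity. Pcdhb9 was named among the largest differences, and the family was then counted, so its count was chosen after its values were seen. Of all 22 genes on the array none was 2-fold dimmer and 4 had equal values, and the median over the 22 was 1.12. The filter passed 14 genes, most of them through the array labelled as high doxycycline alone, so no count over those 14 is given. Pcdhb9 gave 73.1, 1885 and 1775, Pcdhb4 gave 109, 1299.6 and 1079.7 and Pcdhb2 gave 109, 1099 and 989. Both other arrays lay well above the array labelled as control in these genes. Pcdhb15, in contrast, had the same deposited value of 408 on all arrays, and Pcdhb18 was 1.61-fold brighter (153, 246 and 245). The 8 genes below the filter had intensities of at most 172 on every array. Near-identical copies in this family can share probes, so single genes of it are uncertain.

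Lineage genes of pigment cells and neural crest were mostly close to level. Of 16 genes 3 were brighter and 1 dimmer (18.8% and 6.25%, against 16.4% and 8.39% of all genes of like brightness, median 0.13). Dlx1 (169, 1283 and 1458) and its neighbour Dlx2 (336, 767 and 816), homeobox genes of the pharyngeal neural crest, were brighter, as was Twist1 (389.9, 1001 and 1232). Dlx1 passed the filter through the array labelled as high doxycycline alone. A further gene of that family, Dlx5, was lower on that array but within 2-fold (346, 198 and 196). Mitf, the master factor of melanocytes, gave 1281, 1344 and 1018, and Pmel, a melanosome protein, was near the array's median (243, 243 and 251). Gpnmb, which macrophages also make, was the dimmer gene (1292, 373 and 619). Ngfr, the p75 receptor that marks neural crest cells, was within 2-fold of the control value and far brighter on the array labelled as tumor (669, 957 and 4449.6).

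**Figure D3:**
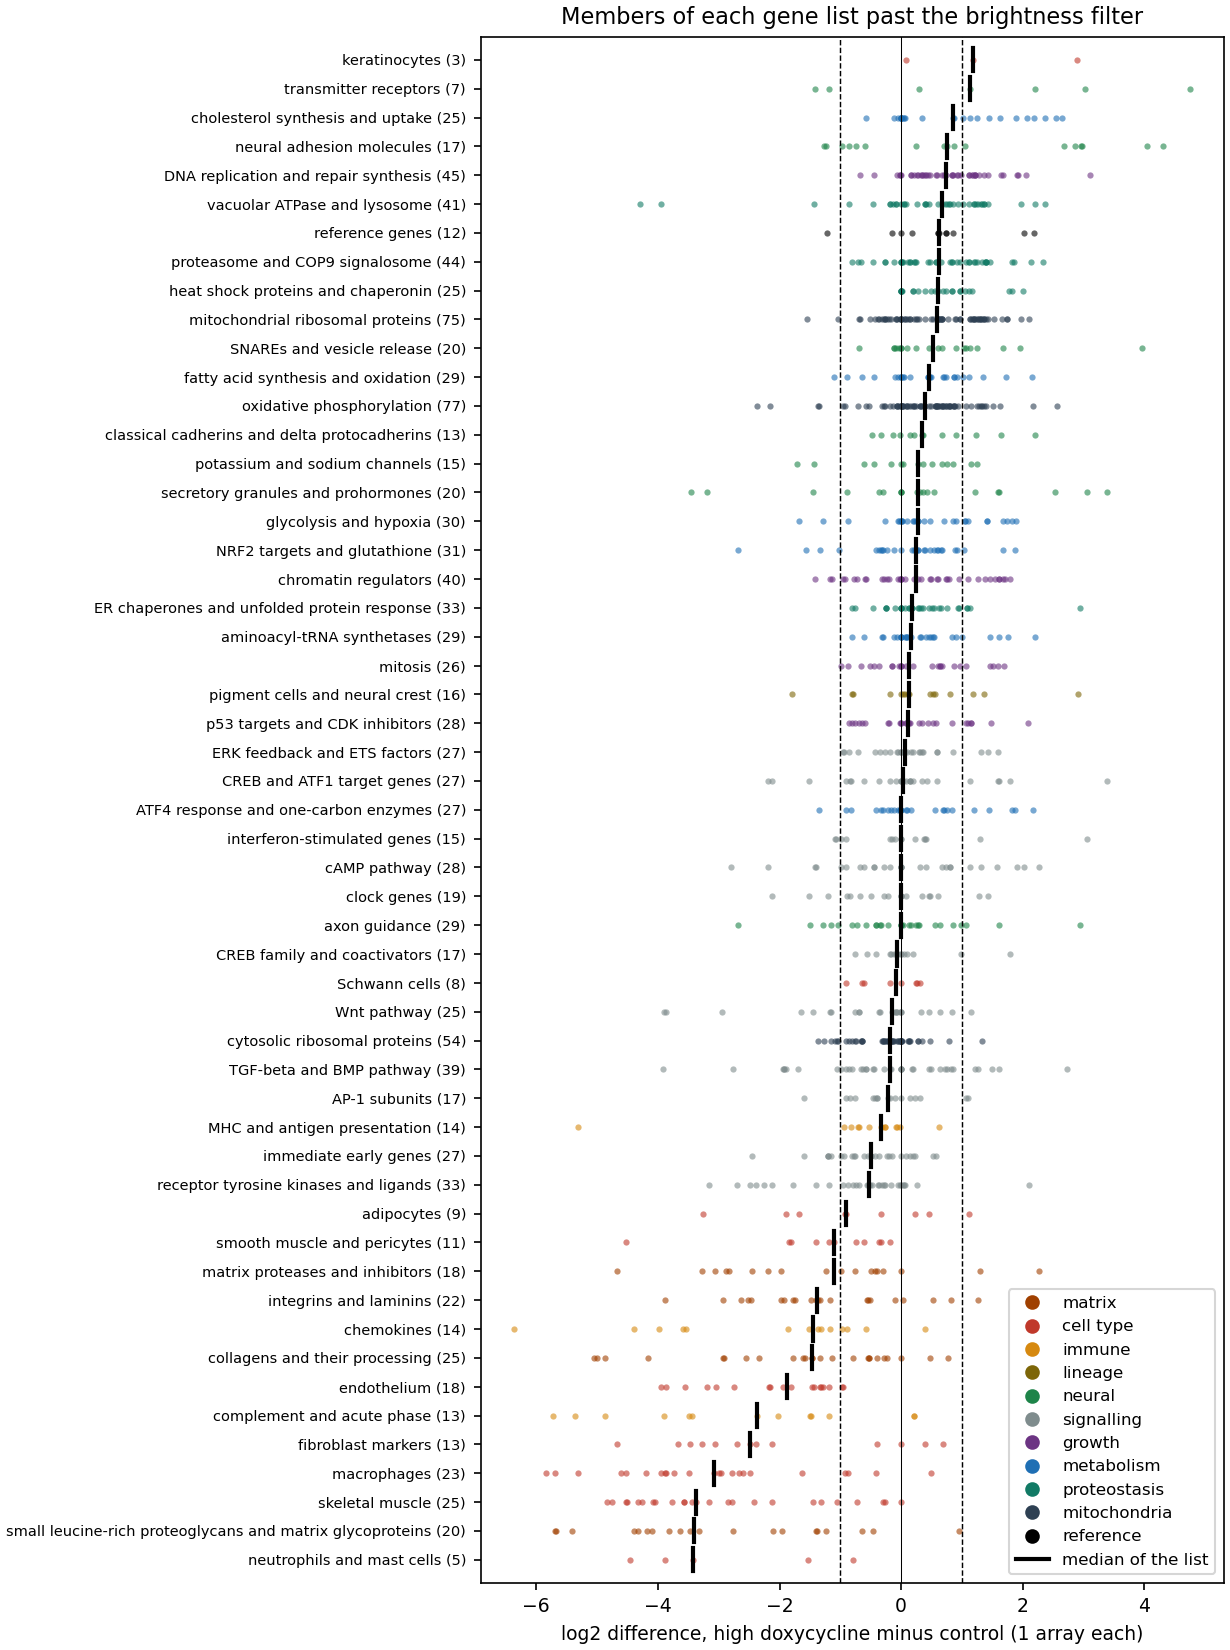
Each point is a list member past the filter, placed by its log2 difference (high doxycycline minus control), with the number of such members in parentheses and the colour giving the kind of list. Dashed lines mark 2-fold and black bars the list medians, which run from -3.42 for neutrophil and mast cell markers to 1.18 for keratinocyte genes, of which 3 passed.

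Several steps of DNA replication held brighter genes. In the DNA replication and repair synthesis list 16 of 45 genes were brighter and none dimmer (35.6%, against 15.8% of all genes of like brightness), with a median of 0.74. Of the 46 genes measured, 38 lay above the array's median on the array labelled as control and 45 on the array labelled as high doxycycline. Rfc4, part of the clamp loader, gave 149, 1289 and 868. The primase gene Prim1 gave 163, 679.8 and 468, and the GINS subunits Gins3 and Gins4 gave 204, 765 and 526 and 579, 1841 and 1828. Rrm1, the large subunit of ribonucleotide reductase, gave 703, 2192 and 1439. In these genes the array labelled as tumor lay between the other pair or close to the high doxycycline value. Rfc4, Prim1 and Gins3 passed the filter through the array labelled as high doxycycline alone, so the count describes these arrays only. None of the 6 genes of the MCM helicase passed 2-fold (median 0.52). In the mitosis list 5 of 26 genes were brighter and none dimmer (19.2% brighter, against 12.3% of all genes of like brightness), and the median was 0.14. The spindle checkpoint gene Mad2l1 was brighter (1778, 5750.2 and 2649.6), as were Bub1 (94.0, 259.6 and 58.4) and Bub3 (1030.3, 2927 and 2452). Bub1 passed the filter through the array labelled as high doxycycline alone. The proliferation marker Mki67 was nearly level between the compared arrays and low on the array labelled as tumor (319, 285 and 90.2). The survivin gene Birc5 lay just under 2-fold dimmer (452, 226 and 161).

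The 28 p53 targets and CDK inhibitor genes had a median of 0.12, and -0.02 under quantile normalization. Among them 6 were brighter and none dimmer (21.4% brighter, against 16.8% of all genes of like brightness). Ei24 was the largest (568, 2422 and 2535), followed by the CDK inhibitors Cdkn2c (402, 1116 and 2456) and Cdkn1b (2749.6, 6124 and 6616). Among 40 chromatin regulators 10 were brighter and 3 dimmer (median 0.25), where 21.3% and 8.27% of all genes of like brightness were. The remodeller gene Hells (95.8, 332 and 155), the deacetylase gene Hdac2 (919, 3023 and 2666), the demethylase gene Kdm6a (158, 510.2 and 646) and the polycomb gene Bmi1 (589.7, 1798 and 1968) were brighter. The histone methyltransferase genes Kmt2d (1669.6, 622 and 622) and Kmt2a (1847, 823 and 905) and the deacetylase gene Hdac5 (1655, 755 and 1102) were dimmer.

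Cholesterol genes had the highest median of the metabolic lists. Of 25 genes for synthesis and uptake 11 were brighter and none dimmer (44.0%, against 21.9% of all genes of like brightness), with a median of 0.86. All of the 11 except Insig2 encode enzymes that act after mevalonate. Idi1 makes the activated isoprene unit (152, 956 and 669.8). Sqle oxidises squalene (324, 1363 and 805), and Cyp51 (165, 758 and 439), Msmo1 (252, 1299.5 and 1044), Nsdhl (529, 3084 and 2097) and Tm7sf2 (329, 1222 and 967) turn lanosterol into later sterols. In each of these 6 genes the array labelled as tumor lay between the other pair. Idi1 and Cyp51 passed the filter through the array labelled as high doxycycline alone. Among genes that control the pathway, Insig2 was thus brighter, while Insig1, Srebf1 and Scap were close to level. Insig1 gave 2939, 2834 and 5016, and Srebf1 (1731, 1731 and 977) and Scap (2192, 2192 and 2192) were equal on both compared arrays. The kinase gene Pmvk was within 2-fold between the compared arrays and low on the array labelled as tumor (3117, 2091 and 498).

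Among 29 fatty acid genes 5 were brighter and 1 dimmer (17.2% and 3.45%, against 23.1% and 8.16% of all genes of like brightness, median 0.46). The elongase gene Elovl6 (686, 3062 and 2868) and malic enzyme, Me1 (541, 1788 and 1667), were brighter. Fasn, the fatty acid synthase, was level (1505, 1450.2 and 1114), and Acacb, the acetyl-CoA carboxylase of muscle and liver, was dimmer (643, 298 and 408). Glycolysis and hypoxia genes held 9 brighter and 2 dimmer of 30 (30.0% and 6.67%, against 23.5% and 8.12% of all genes of like brightness, median 0.28). Both oxygen sensors Egln3 (1100.0, 4072 and 5929.9) and Egln1 (665, 2125 and 1756) were brighter, with the phosphofructokinases Pfkp (841, 2813 and 2403) and Pfkl (1150.2, 3064 and 2267) and the lactate dehydrogenase gene Ldhb (1589, 5639.6 and 6889.9). The hypoxia-induced hormone gene Adm, also a product of endothelium, was dimmer (1055, 327 and 478). In the amino acid response and one-carbon list 5 of 27 genes were brighter and 1 dimmer (median 0.00). The shares were 18.5% and 3.70%, against 18.4% and 8.43% of all genes of like brightness. Shmt2, the mitochondrial serine enzyme, gave 1265, 5689.6 and 4236, and asparagine synthetase, Asns, gave 2486, 8825 and 7851. Of 29 aminoacyl-tRNA synthetase genes 5 were brighter (17.2%, against 19.3% of all genes of like brightness), led by Rars (645, 2960.1 and 2355), and none dimmer. In the NRF2 and glutathione list 3 of 31 were brighter and 4 dimmer (9.68% and 12.9%, against 22.6% and 8.23% of all genes of like brightness). Its median of 0.25 became -0.02 under quantile normalization. Gpx3, the secreted glutathione peroxidase of plasma and muscle, gave 6313, 987 and 1915, and the peroxiredoxin gene Prdx1 gave 2068, 6601 and 6091.

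Protein degradation and acidification genes were brighter in particular complexes. Over the vacuolar ATPase and lysosome list 14 of 41 genes were brighter and 3 dimmer, with a median of 0.68. The shares were 34.1% and 7.32%, against 25.7% and 8.05% of all genes of like brightness. The vacuolar ATPase acidifies lysosomes and secretory granules. Of the 16 subunit genes of the vacuolar ATPase past the filter 9 were brighter and none dimmer by 2-fold. Their median was 1.22 (0.94 under quantile normalization), and no share of like brightness was computed for them. Atp6v1d was the largest at 861, 4447 and 4620.2, then Atp6v1h at 425, 1662 and 1570.2. Among 9 cathepsin genes, in contrast, 1 was brighter and 3 dimmer, with a median of -0.08. The dimmer ones were Ctsk (2137, 108 and 99.1), Ctss (1391, 88.9 and 88.9) and Ctsh (1831, 679.6 and 679.6), which macrophages and osteoclasts make in quantity. Over the proteasome and COP9 list 16 of 44 genes were brighter and none dimmer (36.4%, against 25.2% of all genes of like brightness), with a median of 0.62. The median was 0.82 for the 14 core subunits, 0.92 for the 9 genes of the COP9 signalosome and 0.21 for the 17 genes of the cap, which became -0.05 under quantile normalization. The cap held both the highest difference of the list, that of the deubiquitinase gene Psmd14 (944, 4736 and 3836), and the lowest, that of Psmd3 (1971, 1128 and 1080.4). These subgroups were formed after values were seen.

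Chaperone lists held no gene 2-fold dimmer, and their shares of brighter genes did not exceed those of all genes of like brightness. Of 25 heat shock and chaperonin genes 6 were brighter (24.0%, against 25.8% of all genes of like brightness), with a median of 0.60. The J-domain genes Dnajb4 (916, 3669.6 and 4175) and Dnaja1 (878, 3106 and 3240.4) led them. The inducible Hspa1a had the same deposited value on all arrays (524). Of 33 endoplasmic reticulum and unfolded protein response genes 4 were brighter (12.1%, against 24.0% of all genes of like brightness), with a median of 0.19. Dnajb9, a target of the IRE1 branch, was 7.66-fold brighter (279, 2146 and 2674), and Xbp1, the factor of that branch, lay just under 2-fold (3597, 6931 and 6715).

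Ribosomal protein genes of the mitochondrion and of the cytosol had medians on different sides of 0. Of 75 mitochondrial ribosomal protein genes 24 were brighter and 2 dimmer (32.0% brighter, against 20.3% of all genes of like brightness), with a median of 0.58. Mrpl49 gave 601, 2575 and 2680.2 and Mrps36 gave 197, 772 and 772. Mrps36 passed the filter through the array labelled as high doxycycline alone. Of 54 cytosolic ribosomal protein genes 1 was brighter and 6 were dimmer, with a median of -0.18. The shares were 1.85% and 11.1%, against 25.9% and 8.07% of all genes of like brightness. Rps3a1 was the dimmest (1382, 537 and 461), and Rps27l, a paralog that p53 induces, was the brighter one (1198, 3002 and 2796). Many cytosolic ribosomal genes have pseudogene copies that can share probes, so their single values are uncertain. Of the 77 oxidative phosphorylation genes 12 were brighter and 4 dimmer (15.6% brighter, against 26.0% of all genes of like brightness), with a median of 0.39. Of the 77 genes 61 lay in the brightest of the 5 groups, where 27.5% of all genes were brighter. The 35 genes of complex I included 8 of the brighter ones, and Ndufb6 was the largest (1308, 7767 and 7759.7). No share of like brightness was computed for complex I, so its count is not read as an excess. Complex IV had none brighter and 3 dimmer of 13. Of these 3, Cox8b (836, 161 and 152) and Cox6a2 (839, 188 and 201) are the isoforms of heart and skeletal muscle, and Cox7a2l rests on 2 probe sets with opposite signs (-1.35 and 0.63).

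Of 12 genes listed as stable references 2 were brighter and 1 dimmer (16.7% brighter, against 25.7% of all genes of like brightness), with a median of 0.62. Hprt gave 858, 3486 and 3479 and Tfrc gave 307, 1398 and 2117, and the RNA polymerase subunit gene Polr2a was dimmer (2116, 905 and 925). Actb was nearly level (14505, 16391 and 15915). This median is close to those of the proteasome, heat shock and mitochondrial ribosome lists.

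The extracellular matrix lay on the dimmer side together with the macrophage, vessel and muscle markers, whose part in it was not tested. Of 25 collagen and collagen-processing genes 15 were dimmer and none brighter (60.0%, against 8.45% of all genes), with a median of -1.47. The fibrillar chains were far apart between the arrays: Col1a1 gave 10029.9, 343 and 332 and Col3a1 gave 4257, 237 and 274. Lox, which crosslinks them, gave 2126, 65.6 and 61.7. The exceptions were the prolyl hydroxylase genes P4ha1 (2200.4, 3765 and 3114) and P4ha2 (553, 768 and 687), enzymes inside the cell, which were higher on the array labelled as high doxycycline but within 2-fold. Pcolce, an enhancer of collagen processing, was bright on all arrays (12431, 10582 and 11817). Among 20 small proteoglycan and matrix glycoprotein genes 17 were dimmer (median -3.40), with decorin, Dcn, at 4867, 267 and 491 and periostin, Postn, at 3436, 163 and 272. Sparcl1 was the exception above 0 (5855, 11296 and 11943). Of 13 fibroblast markers 9 were dimmer (median -2.49), among them Pdgfrb (1099.7, 169 and 187) and Thy1 (1521, 181 and 174). The 4 others were within 2-fold. Twist2 (1175, 1893 and 1649) and Cxcl12 (467, 611 and 578) were higher on the array labelled as high doxycycline. Pi16 was equal on the compared arrays (3891, 3891 and 3115) and S100a4 was lower (1483, 1127 and 1810).

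Proteases and adhesion receptors of the matrix included genes on both sides. Of 18 protease and inhibitor genes 9 were dimmer and 2 brighter (median -1.11). The gelatinase gene Mmp2 was at 5383, 209 and 183, and the urokinase gene Plau was at 3237, 439 and 172. The brighter ones were Timp3, a matrix-bound inhibitor (3661, 8949 and 6568), and Adam23, a neuronal member that lacks protease activity (332, 1604 and 2430.2). Of 22 integrin, laminin and basement membrane genes 14 were dimmer and 1 brighter (median -1.38). The basement membrane genes Nid1 (1718, 116 and 122), Lamb1 (2125, 279 and 228) and Col4a2 (2101, 364 and 308) were dimmer, as was the fibronectin receptor subunit Itga5 (1332, 214 and 272). The collagen receptor subunit Itga2 was the brighter one (574, 1378 and 692).

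Some growth factors and receptors that stromal cells carry were dimmer as well, while 23 of the 33 genes listed here were within 2-fold. Of 33 receptor tyrosine kinase and ligand genes 9 were dimmer and 1 was brighter (27.3% and 3.03%, against 8.40% and 16.2% of all genes of like brightness), with a median of -0.53. The dimmer receptors include Pdgfra (1102, 253 and 360.4), Csf1r (1201, 214 and 173), Axl (2681, 514 and 1088) and Mertk (397, 81.9 and 99.0), which fibroblasts or macrophages carry. The insulin-like growth factor gene Igf1 was the dimmest (1434, 160.0 and 229). Met, the receptor of hepatocyte growth factor, was the brighter gene (435, 1868 and 1244), while its ligand gene Hgf was level (1477, 1477 and 1455). In the Wnt list 7 of 25 genes were dimmer and 1 brighter (median -0.15). The secreted antagonists Sfrp2 (2123, 141 and 141), Dkk3 (1910.3, 131 and 118), Sfrp4 (812, 105 and 111) and Sfrp1 (1378, 441 and 678) were all dimmer, and the receptor Fzd3 was brighter (318, 705 and 305).

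In the TGF-beta and BMP list 8 of 39 genes were dimmer and 5 brighter (20.5% and 12.8%, against 8.29% and 21.3% of all genes of like brightness, median -0.19). Ligands were found on both sides. Bmp5 (1871, 123 and 122) and Bmp6 (3118, 457 and 338) were dimmer, whereas Bmp2 (382, 2535 and 1946) and Bmp7 (1670.2, 4016 and 1904) were brighter. Of the signal carriers, Smad3 was dimmer (1908, 494 and 592), and Smad2 (546, 1264 and 1167) and the BMP receptor gene Bmpr1a (949.6, 2683 and 2683) were brighter. Id2, a BMP-induced inhibitor of helix-loop-helix factors, was 3.04-fold brighter (2862, 8692 and 12807). Stromal cells also make Bmp5, Bmp6, Grem1 (561, 147 and 152) and the latency protein Ltbp1 (1704, 523 and 411), all of them dimmer, and the part of such cells was not tested.

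Muscle and vessel genes were dimmer in most cases. Of 25 skeletal muscle genes past the filter 21 were dimmer and none brighter (84.0%, against 8.45%), with a median of -3.38. Desmin, Des, the intermediate filament of muscle, gave 2949, 128 and 136. The slow-fibre gene Tnni1 had the same value on all arrays (241, 241 and 241), and myoglobin, Mb, was highest on the array labelled as tumor (464, 378 and 754). Of 18 endothelial genes 16 were dimmer (median -1.87), from Cdh5 and the VEGF receptor gene Kdr (1955, 133 and 101) to Egfl7 (3579.7, 1574 and 764). Of 11 smooth muscle and pericyte genes 6 were dimmer (median -1.11). Of 5 neutrophil and mast cell genes 4 were dimmer, among them the calprotectin gene S100a9 (2101, 141 and 129). Among 3 keratinocyte genes 2 were brighter, the desmosomal genes Dsg3 (123, 918 and 305) and Pkp1 (840.4, 1905 and 1686), and the median of 1.18 became -0.067 with no brightness filter.

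Macrophage, chemokine and complement genes were mostly dimmer, and MHC and interferon-stimulated genes mostly within 2-fold. Of 23 macrophage genes past the filter 19 were dimmer and none brighter, with a median of -3.08. Of 14 chemokine genes 10 were dimmer (median -1.44), from Ccl8 (5657, 67.8 and 65.2) to Ccl6 (1988, 93.9 and 84.8) and the B-cell attractant Cxcl13 (1736, 148 and 147). Cxcl14 stayed bright on all arrays (10384, 6946 and 4761). Complement and acute phase genes were dimmer in 11 of 13 cases (median -2.38), for example the fourth component gene C4b (5441, 363 and 433) and haptoglobin, Hp (1342, 122 and 121). The initiating proteases C1ra (586, 681 and 889) and C1s1 (1093, 1260.5 and 1919) were not. In the MHC and antigen presentation list 1 of 14 genes was dimmer (median -0.32). It was Cd74, the chain that guides class II molecules (4577, 114 and 93.4), although the class II genes it serves were bright on every array, with H2-Aa at 8004, 6653 and 4080.2 and H2-Ab1 at 8071, 4949.8 and 3413. Of 15 interferon-stimulated genes 2 were brighter and 2 dimmer (13.3% each, against 16.7% and 8.61% of all genes of like brightness, median 0.00). Usp18, which removes the ubiquitin-like ISG15, was 8.31-fold brighter (382, 3179.7 and 4479.5), while Irf7 lay just under 2-fold dimmer (501, 251 and 239).

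A few genes stood apart on the array labelled as high doxycycline from both other arrays. They were ranked by the log2 distance to the nearer of the arrays labelled as control and tumor, by a rule set after the values were seen. Cyp3a44, a cytochrome P450 of liver, led the brighter side at 24.0-fold above the nearer array (82.8, 2014 and 45.5). Near-identical genes of its family can share probes, so its value is uncertain. Next were Ucp1, the uncoupling protein of brown fat, at 8.74-fold (306, 2685 and 149.7), the prolactin-family hormone gene Prl7b1 at 7.97-fold (298, 2379.9 and 76.2) and Apela, a peptide ligand of the apelin receptor, at 7.05-fold (94.98, 1068 and 151). Then followed P2rx3, Chrna5, and the early-response gene Apold1 at 3.82-fold (2208, 10291 and 2695). Genes of unrelated tissues thus led this ranking. Rxrg, a retinoid X receptor gene, was 3.50-fold above the nearer array (395, 3474 and 992), and B3galt5, a glycosyltransferase gene, was 3.08-fold above it (201, 1086 and 352).

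On the opposite side, the distances were smaller. The lowest value against both others was that of Igfbp5, a binding protein of insulin-like growth factors, at 4.63-fold below the nearer array (1445, 159.9 and 745). Gas6, the ligand of Axl and Mertk, was 4.57-fold below it (6154, 342 and 1565), and the small proteoglycan gene Aspn was 4.33-fold below it (395, 90.4 and 579). Igfbp4 was also in this ranking, 2.50-fold below the nearer array (5438, 214 and 535), with Ccn5 at 2.67-fold (2806, 474 and 1268). These 5 genes are a selection from the 12 ranked. Others among the 12 were Cyp2d22 at 3.00-fold (1569, 342 and 1028), Mustn1 at 2.84-fold (5076, 820 and 2327) and Fbxo31 at 2.50-fold (2744, 678 and 1697). Txnip, a glucose-induced regulator of thioredoxin, was about as bright on the array labelled as control as on the array labelled as tumor and 2.45-fold lower on the array labelled as high doxycycline (2017, 822 and 2140.2).

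Chromosomes also differed. On the X chromosome 101 of 314 genes (32.2%) were brighter and 6.37% dimmer, with a median of 0.50. Chromosomes 10 (25.4%), 6 (25.3%), 13 (24.8%) and 3 (24.4%) came next, and chromosomes 7 (11.4%), 11 (11.6%) and 17 (12.3%) had the lowest shares of brighter genes. Leaving out the Y chromosome, the share of dimmer genes ran from 6.37% on the X chromosome to 11.2% on chromosome 12. Genes of a chromosome share base composition and gene density, and the part of these in the shares was not tested. Of 5 genes on the Y chromosome 3 were brighter and 1 was dimmer. The translation factor gene Eif2s3y gave 279, 1643 and 1723, Uty gave 178, 929 and 1031 and the demethylase gene Kdm5d gave 193, 412 and 450.3. Xist, the RNA that silences an X chromosome in female cells, was low on all arrays (63.2, 63.2 and 59.7). These 3 Y-linked genes were thus lowest on the array labelled as control, although it carries the same number in its labels as the array labelled as high doxycycline.

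**Figure D4:**
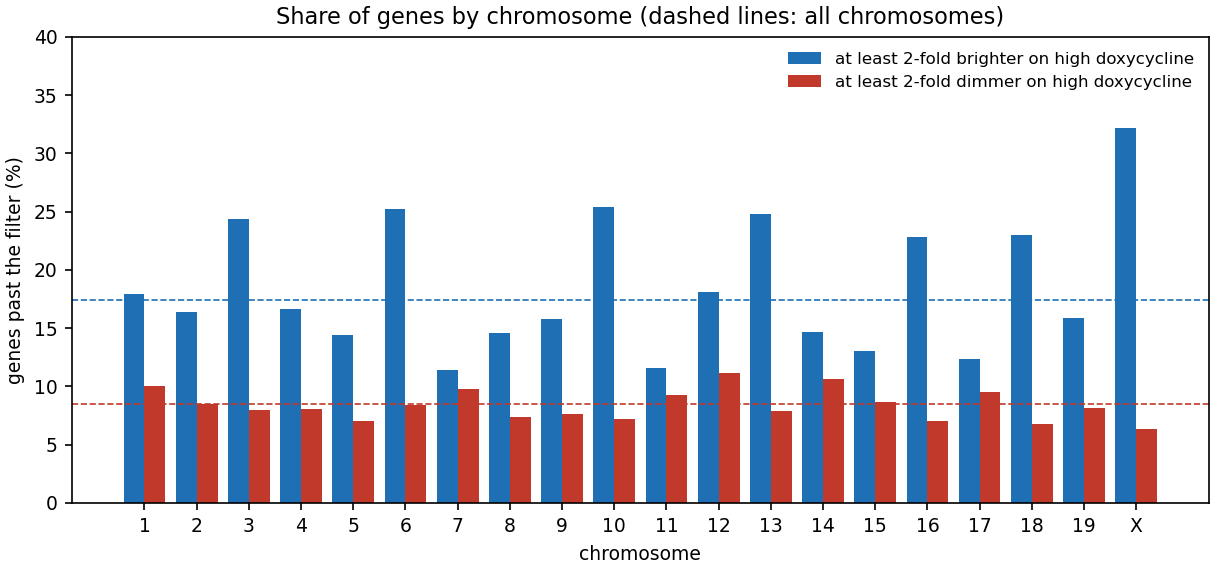
Share of genes past the filter that were at least 2-fold brighter or dimmer on the array labelled as high doxycycline, by chromosome, with dashed lines at the shares of all genes (17.4% and 8.45%). The X chromosome has the highest bar of brighter genes (32.2%); the Y chromosome, with 5 genes, is not drawn.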

How the data were processed

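RNA of 3 mouse samples had been labelled with biotin and hybridised to 1 Affymetrix array each, per the labels. The deposited values are probe set intensity on a linear scale, from 20.7 to 26412; how the authors summarised and normalized the probes is not stated by the labels or file headers. The array medians were 250.0, 226.7 and 219.8 for control, high doxycycline and tumor. Probe sets were named through the platform annotation: 21789 had 1 symbol, 1621 several and 5446 none, and 21698 of the first matched RefSeq symbols on GRCm38.p6. Values were compared as log2(intensity + 1) with Python 3.11.15, numpy 2.4.6 and pandas 2.3.3. A gene needed its brighter array to exceed percentile 50 of that array, and "brighter" or "dimmer" means a log2 difference of at least 1. A list's share of like brightness is the mean, over its members, of the share called in each member's group of 5 brightness groups of all genes. The code was tested on simulated data with 200 changed genes.

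The text names the 15 largest differences each way, without symbols of small RNAs, immunoglobulins, olfactory or vomeronasal receptors or provisional genes, then Fos, Atf1, Ewsr1 and members of 55 gene lists. The comparison and the lists were chosen with earlier results of these data known. Alternatives were a shift to common medians, quantile normalization, no filter or percentile 75, the mean of all probe sets, genes with a single probe set, pseudocounts of 16 and 64, and leaving out genes equal on both arrays. With 1 array per group no test was run.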

Additional observations from a re-analysis of the deposited data

How the results depend on the processing

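Every alternative gave more brighter than dimmer genes, with 1485 to 2503 brighter and 569 to 1195 dimmer. The dimmer count fell from 1008 to 569 with the filter at percentile 75, which tests fewer genes (6509). The shift to a common median split the calls into 2503 and 848, and quantile normalization into 1741 and 1195, with a median difference of -0.02 under the latter. The keratinocyte median became -0.067 with no brightness filter, which brings in members dim on both arrays. Of 53 list medians with at least 3 members, 7 changed sign or left 0 under the shift, 9 under quantile normalization, 7 with no filter and 5 of 52 at percentile 75; 12 moved by more than 0.37, the median disagreement of probe sets, with no filter, besides the keratinocyte list, and 10 at percentile 75. Of the 33 genes named by rule, 12 stayed within that margin at a pseudocount of 64, which shrinks large differences of dim genes, and 30 as a mean of all probe sets. The 30 largest kept their sign, whereas Fos (0.15) became -0.12 under quantile normalization and Ewsr1 (-0.01) became 0.13 under the shift. Of 38 described genes with several probe sets and a 2-fold difference, 35 had probe sets of 1 sign and 33 were still 2-fold as a mean. Scoc, Pdia4 and Cox7a2l had probe sets of opposite sign, and Atp5l, Mrpl47 and Rpl24 fell below 2-fold as a mean. No detection calls accompany the values, so how far a dim gene lies above background is unknown. No paired analysis was possible because each group has 1 array.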
